A study of Homo sapiens with 6 samples.

Results

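Chemokines are small secreted proteins that steer leukocytes along concentration gradients by binding receptors coupled to G proteins. The CC family includes CCL2, which recruits monocytes through the receptor CCR2, and CCL20, which recruits lymphocytes and dendritic cells through CCR6. The CXC family includes CXCL1, CXCL2, CXCL3, CXCL5 and CXCL8, which carry a Glu-Leu-Arg motif and act on neutrophils through CXCR2, and CXCL8 also through CXCR1. CXCL10 is induced by interferons and acts through CXCR3, and CXCL16 is made as a membrane-anchored protein that binds CXCR6. Many of these genes are switched on by NF-kB downstream of interleukin-1 and tumour necrosis factor receptors, together with AP-1 and C/EBP factors, and their mRNAs are often short-lived. The 9 genes named here were followed through all 12 array probes that carry one of their symbols, of 47231 probes on the array, which carry 20046 gene symbols in all. CXCL5, CXCL8 and CXCL16 had 2 probes each and the other members 1, and the brighter probe of a pair is called probe A.

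Cells of SK-Hep1, an established human line labelled as hepatic adenocarcinoma, were transfected with siRNA targeting YAP1 and TAZ (siYAP1&TAZ, 3 samples) or with a control siRNA (siCon, named siLuc in the array table, 3 samples), and RNA was profiled 3 days later on 1-colour Illumina bead arrays. YAP1 and TAZ, which is encoded by WWTR1, are transcriptional co-activators restrained by the Hippo kinases. The labels give neither the number of siRNAs used nor whether replicates were separate cultures, so the p-values cover the spread among the 3 arrays of a group, possibly a technical one. All samples are of 1 cell line. In RNA from a whole culture, fewer cells that express a gene and less of its RNA per cell cannot be told apart.

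Bead intensities were deposited on a linear scale. A probe was called detected on an array when it exceeded a threshold estimated from the dim part of that array, between 76.5 and 128.3, and the 15899 probes detected on at least 3 of 6 arrays, standing for 9718 named genes, were tested after background correction and quantile normalisation to log2 values. Array background levels were 56.8, 64.8 and 58.0 on the siYAP1&TAZ arrays and 71.5, 59.0 and 75.9 on the siCon arrays. YAP1 mRNA fell 5.32-fold (log2 change -2.41 ± 0.0935 SE, limma adjusted p = 2.26e-08), and WWTR1 mRNA fell at least 2.34-fold, to below detection on all 3 siYAP1&TAZ arrays (adjusted p = 6.53e-07). Of the tested probes, 26.6% were higher and 25.6% lower after knockdown at an adjusted p under 0.05, 52.2% in all. Higher probes made up 50.9% of all calls, and 38.5% when arrays were scaled to a common median in place of quantile normalisation, which also shifted the median log2 change of all genes from 0.00 to -0.11. Of the 12 chemokine probes, 7 (for 6 genes) could be tested, 2 of these were higher and 0 lower, and 5 lay below the filter. At an unadjusted p under 0.05 CXCL2 would be added to the higher probes and the lower count would still be 0. CCL20 entered the test only through the arrays where it was high, so the counts over the tested members are given as a description.

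**Figure D1:**
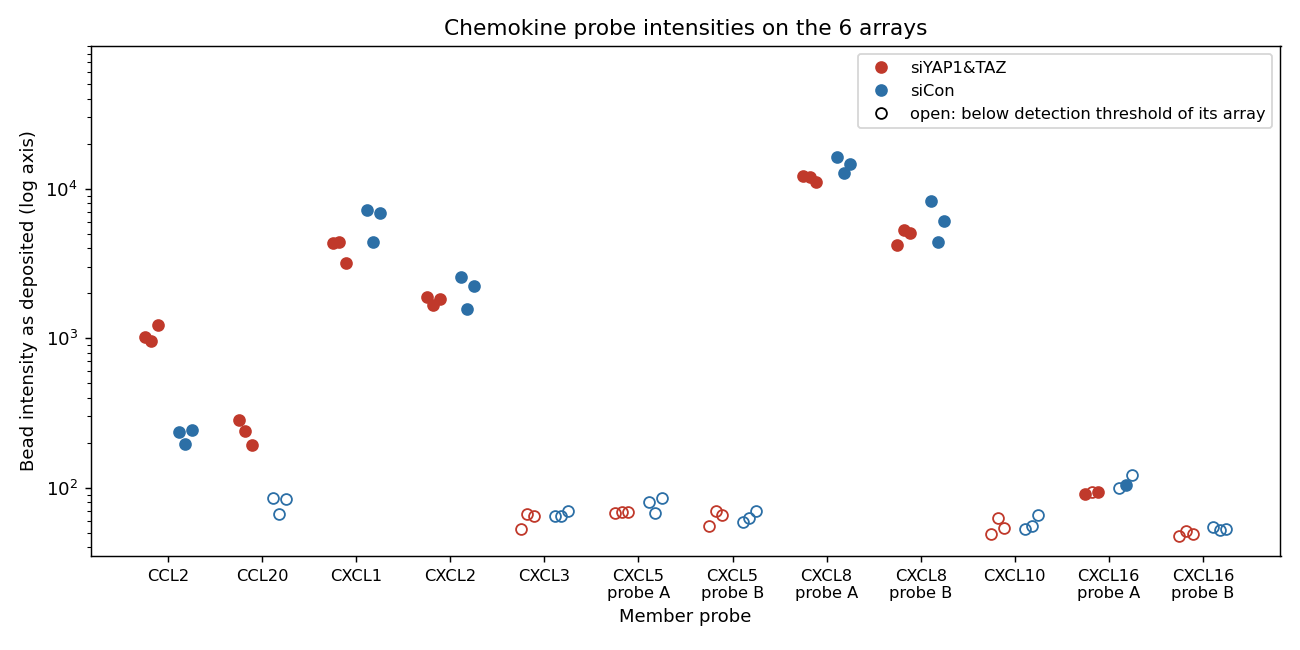
Bead intensity as deposited (log axis) of the 12 chemokine probes on the 3 siYAP1&TAZ arrays (red) and the 3 siCon arrays (blue). Each point is 1 array and open points lie below the detection threshold of their array. CCL2 and CCL20 are higher on all siYAP1&TAZ arrays, CXCL1, CXCL2 and CXCL8 are far above the threshold in both groups, and 5 probes are open on all 6 arrays.

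CCL2 rose 6.87-fold. Its probe read 1026, 958 and 1220 on the siYAP1&TAZ arrays, against 235, 198 and 244 on the siCon arrays. The lowest siYAP1&TAZ value thus lay well above the highest siCon value before any normalisation, as held for 9.91% of tested probes, and the probe exceeded the detection threshold on all 6 arrays. Normalised log2 intensity averaged 10.28 ± 0.109 in siYAP1&TAZ cells and 7.496 ± 0.0791 in siCon cells (SD, n = 3 each). The log2 change was 2.78 ± 0.102 (SE), with a 95% interval of 2.56 to 3.005 and a limma adjusted p of 1.81e-08. Ranked by fitted rise, CCL2 was number 13 of the 9718 tested genes.

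CCL20 was below the detection threshold in control cells and rose at least 3.11-fold. Intensities were 285, 239 and 193 on the siYAP1&TAZ arrays, which is 2.40 to 3.73 times the threshold of each array. On the siCon arrays the same probe read 85.1, 66.4 and 84.0, below the threshold on all 3. The groups did not overlap as deposited or after normalisation. In the same direction this held for 9.91% of tested probes as deposited and for 30% after normalisation. The siYAP1&TAZ values of CCL20 were more spread out than those of CCL2. Normalised log2 intensity averaged 7.96 ± 0.351 in siYAP1&TAZ cells and 5.73 ± 0.0461 in siCon cells (SD, n = 3 each), and the siCon level is one below detection. The fitted log2 change was 2.23 ± 0.153 (SE, limma adjusted p = 6.09e-07). Because the siCon side has only a bound, the fitted change depends on how background is handled, and it ran from 1.70 to 2.42 over the other settings.

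**Figure D2:**
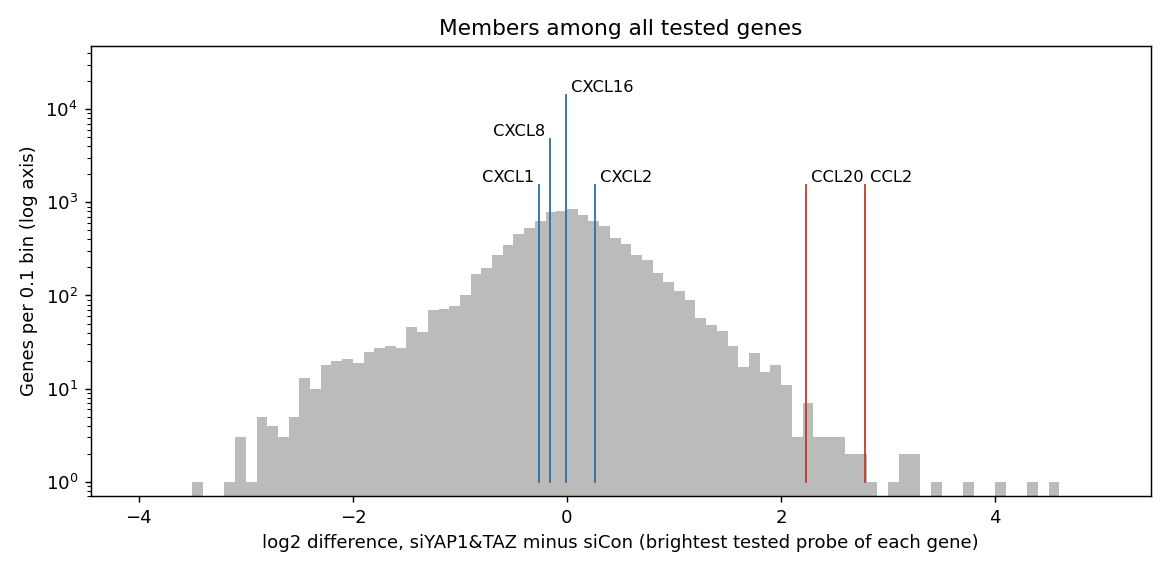
Number of tested genes (log axis) by log2 difference, siYAP1&TAZ minus siCon, in bins of 0.1, with the 6 chemokine genes that have a tested probe marked by lines (red where the adjusted p is under 0.05, blue otherwise). CCL2 at 2.78 and CCL20 at 2.23 lie in the sparse upper tail, and CXCL1, CXCL8, CXCL16 and CXCL2 lie between -0.26 and 0.26, around the peak of the distribution.

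Among the neutrophil chemokines, the probes of CXCL1, CXCL2 and CXCL8 were detected on all 6 arrays and did not pass the threshold of the test, and those of CXCL3 and CXCL5 were below detection on all 6 arrays. For CXCL8, probe A read 12113, 11947 and 11155 on the siYAP1&TAZ arrays and 16336, 12810 and 14615 on the siCon arrays. Every siYAP1&TAZ intensity lay below every siCon intensity, but so did those of 50% of all tested probes. After normalisation the groups overlapped, at 13.61 ± 0.152 in siYAP1&TAZ cells and 13.77 ± 0.185 in siCon cells (SD, n = 3 each). The log2 change was -0.16, with a 95% interval of -0.43 to 0.11 and a limma adjusted p of 0.305. Probe B read 4210, 5309 and 5085 on the siYAP1&TAZ arrays and 8230, 4396 and 6074 on the siCon arrays, so the groups overlapped on that probe even before normalisation. It gave a log2 change of 0.04, with an interval of -0.35 to 0.42 (adjusted p = 0.877).

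CXCL1 read 4325, 4376 and 3193 on the siYAP1&TAZ arrays and 7233, 4417 and 6928 on the siCon arrays. Replicate 2 of siCon, whose array background was the lowest of its group, lay close to the siYAP1&TAZ values and the other siCon arrays well above them. In normalised values CXCL1 averaged 12.12 ± 0.340 in siYAP1&TAZ cells and 12.38 ± 0.258 in siCon cells (SD, n = 3 each), and the groups overlapped. The log2 change was -0.26, with an interval of -0.64 to 0.12 (limma adjusted p = 0.238). Adjusted for each array's background, the change was 0.027 (adjusted p = 0.924), and without siYAP1&TAZ replicate 3, the lowest array, it was -0.07. Leaving out siYAP1&TAZ replicate 2 or siCon replicate 2 moved it to -0.41 in either case (adjusted p = 0.0633 and 0.0953). As ratios, siYAP1&TAZ over siCon, the ends of the interval are 0.641 and 1.09.

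CXCL2 was nearest the threshold among the members that did not pass. It read 1887, 1678 and 1837 on the siYAP1&TAZ arrays and 2566, 1574 and 2222 on the siCon arrays. The intensities as deposited overlapped, with siCon replicate 2 the lowest of all 6 arrays. After normalisation all siYAP1&TAZ values (11.07, 11.05 and 10.98) lay just above all siCon values (10.94, 10.55 and 10.83), as did those of 30% of tested probes, while 29.3% lay apart the other way and 59.3% lay apart in all. The log2 change was 0.26 ± 0.116 (SE), with an interval of 0.008 to 0.52 (limma, unadjusted p = 0.0443 and adjusted p = 0.0786). Single settings decided the call. It passed when adjusted for each array's background (log2 change 0.41, adjusted p = 0.034) and without siCon replicate 1 (0.35, adjusted p = 0.04), whereas under median scaling the change was 0.06 (adjusted p = 0.828), which is 0.17 above the all-gene median of that scaling, and without siCon replicate 2 it was 0.15.

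**Figure D3:**
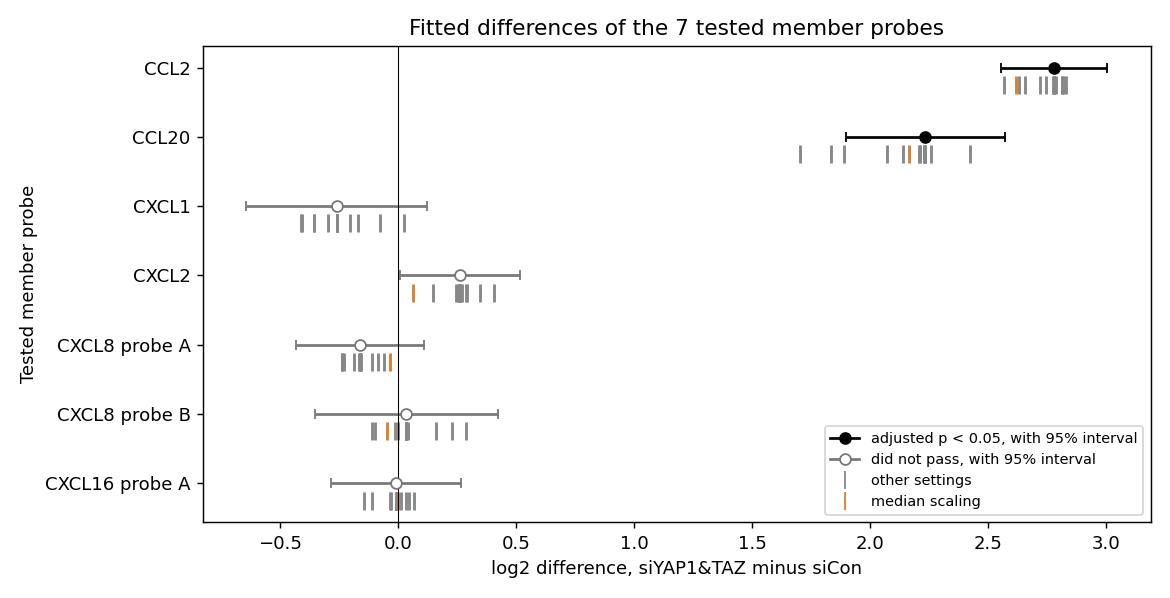
Log2 difference, siYAP1&TAZ minus siCon, of the 7 tested chemokine probes, with 95% intervals from the limma fit (filled where the adjusted p is under 0.05) and, below each, vertical marks for the other settings, with median scaling in orange. CCL2 and CCL20 stay above 1.70 in all settings shown, and the marks of CXCL1, CXCL8 probe B and CXCL16 fall on both sides of 0.

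CXCL3, CXCL5 and CXCL10 had no tested probe. CXCL3 read 52.8, 67.0 and 65.0 on the siYAP1&TAZ arrays and 65.0, 64.6 and 70.5 on the siCon arrays. CXCL10 read 48.8, 62.5 and 53.9 on the siYAP1&TAZ arrays and 53.0, 55.8 and 65.9 on the siCon arrays. These readings, like those of both CXCL5 probes and of CXCL16 probe B, were between 0.411 and 0.887 times the threshold of their arrays, and the groups overlapped for the CXCL3, CXCL5 and CXCL10 probes. Without the detection filter the log2 changes of the 5 probes ran from -0.06 to 0.22, with limma adjusted p-values of 0.437 to 0.930. A probe below the detection threshold bounds the signal of these arrays and does not show that the gene was silent.

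CXCL16 was near the limit of detection. Probe A read 91.5, 93.5 and 93.9 on the siYAP1&TAZ arrays and 99.5, 104 and 122 on the siCon arrays, and it exceeded the threshold on 2 siYAP1&TAZ arrays and 1 siCon array. All intensities as deposited were lower on the siYAP1&TAZ arrays, as for 50% of tested probes. Normalised values overlapped, at 6.33 ± 0.072 in siYAP1&TAZ cells and 6.33 ± 0.235 in siCon cells (SD, n = 3 each). The log2 change was -0.01, with an interval of -0.28 to 0.27 (limma adjusted p = 0.963), and as ratios, siYAP1&TAZ over siCon, its ends are 0.823 and 1.20. ADAM10 and ADAM17, membrane proteases that release CXCL16 from the cell surface, were both measured. ADAM17 was 1.46-fold higher on its brightest probe (adjusted p = 0.00157), with log2 changes of 0.55, 0.73 and 0.32 on its 3 probes, of which the last did not pass, and under median scaling the brightest was at 0.37 and no longer passed (adjusted p = 0.118). Neither ADAM10 probe passed, with log2 changes of 0.24 (adjusted p = 0.141) and 0.26 (adjusted p = 0.072).

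Promoters of the members were compared as sequences. RefSeq promoter sequences (GRCh38.p14) were at hand for 7 of the 9 members, CCL20, CXCL1, CXCL2, CXCL3, CXCL5, CXCL8 and CXCL10. The 250 bases before the start are shown for CCL20, which rose, for CXCL1, CXCL2 and CXCL8, which did not pass, and for CXCL3, a close paralog of CXCL1 and CXCL2. Capitals mark matches to GGANNTTCC, an NF-kB-like motif, or to the 10-base NF-kB consensus, and where both match they overlap. The windows are chr2:227813592-227813841 (+ strand) for CCL20, chr4:73740319-73740568 (+ strand) for CXCL8, chr4:73869143-73869392 (+ strand) for CXCL1, chr4:74099196-74099445 (- strand) for CXCL2 and chr4:74038690-74038939 (- strand) for CXCL3, each written 5′ to 3′ in the direction of the gene.
CCL20: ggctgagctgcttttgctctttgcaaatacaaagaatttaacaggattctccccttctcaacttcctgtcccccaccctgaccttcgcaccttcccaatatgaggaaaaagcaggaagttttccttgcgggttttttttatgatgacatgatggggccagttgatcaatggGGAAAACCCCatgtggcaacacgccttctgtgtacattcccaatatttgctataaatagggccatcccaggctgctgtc
CXCL8: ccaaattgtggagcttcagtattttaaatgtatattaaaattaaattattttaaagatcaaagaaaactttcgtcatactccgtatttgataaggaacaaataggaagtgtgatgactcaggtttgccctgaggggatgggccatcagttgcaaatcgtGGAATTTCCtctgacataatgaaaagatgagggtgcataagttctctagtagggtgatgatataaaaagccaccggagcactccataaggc
CXCL1: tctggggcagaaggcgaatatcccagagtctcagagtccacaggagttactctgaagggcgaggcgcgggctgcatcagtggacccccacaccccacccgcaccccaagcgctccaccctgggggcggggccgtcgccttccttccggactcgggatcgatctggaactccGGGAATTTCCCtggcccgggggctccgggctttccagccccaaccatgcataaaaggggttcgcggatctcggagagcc
CXCL2: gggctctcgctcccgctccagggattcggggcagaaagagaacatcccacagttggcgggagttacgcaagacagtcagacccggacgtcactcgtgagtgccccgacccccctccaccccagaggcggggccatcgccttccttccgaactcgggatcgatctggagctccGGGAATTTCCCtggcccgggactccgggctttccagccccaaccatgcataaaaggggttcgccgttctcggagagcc
CXCL3: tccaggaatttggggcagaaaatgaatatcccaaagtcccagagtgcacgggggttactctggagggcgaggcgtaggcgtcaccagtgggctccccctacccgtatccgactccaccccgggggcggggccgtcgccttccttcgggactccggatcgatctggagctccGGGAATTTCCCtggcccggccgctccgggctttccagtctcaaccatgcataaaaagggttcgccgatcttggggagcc

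Searched on both strands, GGANNTTCC was found in 6 of the 7 member promoters and in 3.88% of the 27305 gene promoters in the same table. The NF-kB consensus was found in 6 of 7 and in 9.57% of all. CCL20 had the consensus, 79 to 70 bases before the start, but not GGANNTTCC, and CXCL8 had GGANNTTCC, 91 to 83 bases before the start, but not the consensus. In CXCL1 and CXCL3 the match to GGANNTTCC began 78 bases and in CXCL2 77 bases before the start. Over aligned columns CXCL3 was 81.4% identical to CXCL1 and 73.4% to CXCL2 in this window. TGANTCA, an AP-1-like motif, was found in CXCL8 alone of the 7 (6.6% of all promoters), a pair of GAAA words with any 2 bases between them, an interferon-response-like motif, in CXCL10 alone (3.07%), and GGAATG, a TEAD-like motif, in CCL20 alone (11.9%). A match is a description of letters, not a binding site. Probe sequences were not used here, and how far the probes of these paralogs read one another is unknown.

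Most of the chemokine genes sit in clusters. CCL20, on chromosome 2, CXCL16, and CXCL10, between CXCL9 and CXCL11 on chromosome 4, lie outside the rows given here. The tested neighbours on chromosome 4 were not all called alike, and differences between these genes were not tested. In the annotation the protein-coding genes from CXCL8 to CXCL2 on chromosome 4 run CXCL8, CXCL6, PF4V1, CXCL1, PF4, PPBP, CXCL5, CXCL3 and CXCL2, of which CXCL8, CXCL6, CXCL1, PPBP and CXCL2 had a tested probe. CXCL6, another neutrophil chemokine, was the member of this row that was called. Its brighter probe read 2670, 1972 and 3074 on the siYAP1&TAZ arrays and 2484, 2418 and 2298 on the siCon arrays, which overlapped as deposited and not after normalisation, with a log2 change of 0.53 (adjusted p = 0.00541), and its other probe gave 0.81 (adjusted p = 2.97e-05). On the brighter probe the call was lost under median scaling (0.35, adjusted p = 0.14) and after adjustment for each array's background (0.32, adjusted p = 0.0811). PPBP, a platelet chemokine precursor, was at 0.01 and did not pass. On chromosome 17 the neighbours of CCL2, CCL7, CCL11, CCL8 and CCL1, were all below the filter, and CCL13 had no uniquely named probe.

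Of 35 other chemokine ligand genes with a named probe, 31 were below the filter, among them CXCL9, CXCL11, CXCL12 and CX3CL1, and 4 were tested, of which CXCL6 and CCL5 rose. CCL5, which attracts T cells and monocytes, rose 2.61-fold on its brighter probe. That probe read 414, 315 and 344 on the siYAP1&TAZ arrays and 199, 150 and 222 on the siCon arrays. These groups did not overlap, as held in the same direction for 9.91% of tested probes. The log2 change was 1.38 ± 0.136 (SE, limma adjusted p = 9.46e-06), and the other CCL5 probe gave 1.88. Receptors were mostly below the filter as well, 19 of 21. CXCR1, CXCR2, CXCR3, CXCR6 and the 10 probes of CCR2 were below detection on all 6 arrays. The receptors of the neutrophil chemokines, of CCL2, of CXCL10 and of CXCL16 were thus not measured above the detection threshold. CCR6, the receptor of CCL20, gave conflicting readings, with 1 probe between 15856 and 17462 on all arrays (log2 change 0.07, adjusted p = 0.573) and 2 probes below detection on all arrays. CCRL2, an atypical receptor that binds the chemoattractant chemerin without signalling, rose 1.54-fold on 1 probe (log2 change 0.62 ± 0.134 SE, limma adjusted p = 0.00232). That probe was detected on 3 siYAP1&TAZ arrays and 2 siCon arrays, and its intensities as deposited overlapped. The 2 other CCRL2 probes were below detection on all 6 arrays.

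Genes that feed chemokine transcription moved in both directions, beside a background in which 27.4% of the 9718 genes were higher and 27.4% lower, 54.8% in all, and the median log2 change was 0.00. Among 16 tested genes of interleukin-1, interleukin-17, TNF and Toll-like receptor signalling, 8 rose and 1 fell (median 0.37). The interleukin-17 receptor genes IL17RA and IL17RC were among those that rose. IRAK2, a kinase of the interleukin-1 receptor complex, rose 4.68-fold, TRADD, an adaptor of TNF receptor 1, 2.31-fold, and IL1R1, the signalling receptor of interleukin-1, 2.06-fold (detected on 3 siYAP1&TAZ arrays and 2 siCon arrays), while the related kinase gene IRAK1 fell 2.04-fold. Under median scaling 5 of these genes were higher. Among 15 genes of NF-kB subunits, their inhibitors and the IkB kinase complex, 7 rose and 2 fell (median 0.25). The largest rises in this list were those of TNFAIP3, a ubiquitin-editing inhibitor, at 2.45-fold, BCL3, an atypical nuclear IkB protein, at 2.32-fold, and NFKBIA, which encodes IkB-alpha, at 2.04-fold, followed by the subunit genes NFKB2 at 1.91-fold and RELB at 1.90-fold. NFKBIB, which encodes IkB-beta and was detected on 2 siYAP1&TAZ arrays and 3 siCon arrays, fell 1.97-fold (log2 change -0.28 on a dimmer probe, adjusted p = 0.0384), and CHUK, an IkB kinase subunit, fell 1.36-fold.

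Of 14 tested IRF, STAT, Janus kinase and interferon receptor genes, 11 rose and 0 fell (median 0.68). The probe of CXCL10, whose gene is known to respond to interferons, was below detection. STAT3, which carries interleukin-6 signals, rose 2.90-fold, IRF9, a DNA-binding subunit of an interferon-activated transcription factor, 2.26-fold, and IFNGR2, a subunit of the interferon-gamma receptor, 2.15-fold. By limma the count of lower genes was also 0 at an unadjusted p under 0.05, and 1 without siCon replicate 3. Of the genes that rose, IFNGR1, IRF1, IRF3, SOCS3 and JAK1 had intensities as deposited that overlapped between the groups. Of 9 AP-1 and C/EBP genes, 5 rose and 3 fell (median 0.30). JUNB, detected on 3 siYAP1&TAZ arrays and 1 siCon array, rose 2.91-fold on the fitted scale, JUND 2.25-fold and CEBPD, a C/EBP factor of the acute-phase response, 2.04-fold, and FOSL1, an AP-1 subunit, fell 2.13-fold, MAFF, a small MAF protein, 1.43-fold and JUN 1.32-fold. The 3 MAFF probes disagreed, at log2 changes of -0.51, -0.72 and 0.08, of which the last did not pass, and the MAFF call was lost after adjustment for each array's background (adjusted p = 0.0884). The JUN call was lost without the detection filter (adjusted p = 0.0592).

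**Figure D4:**
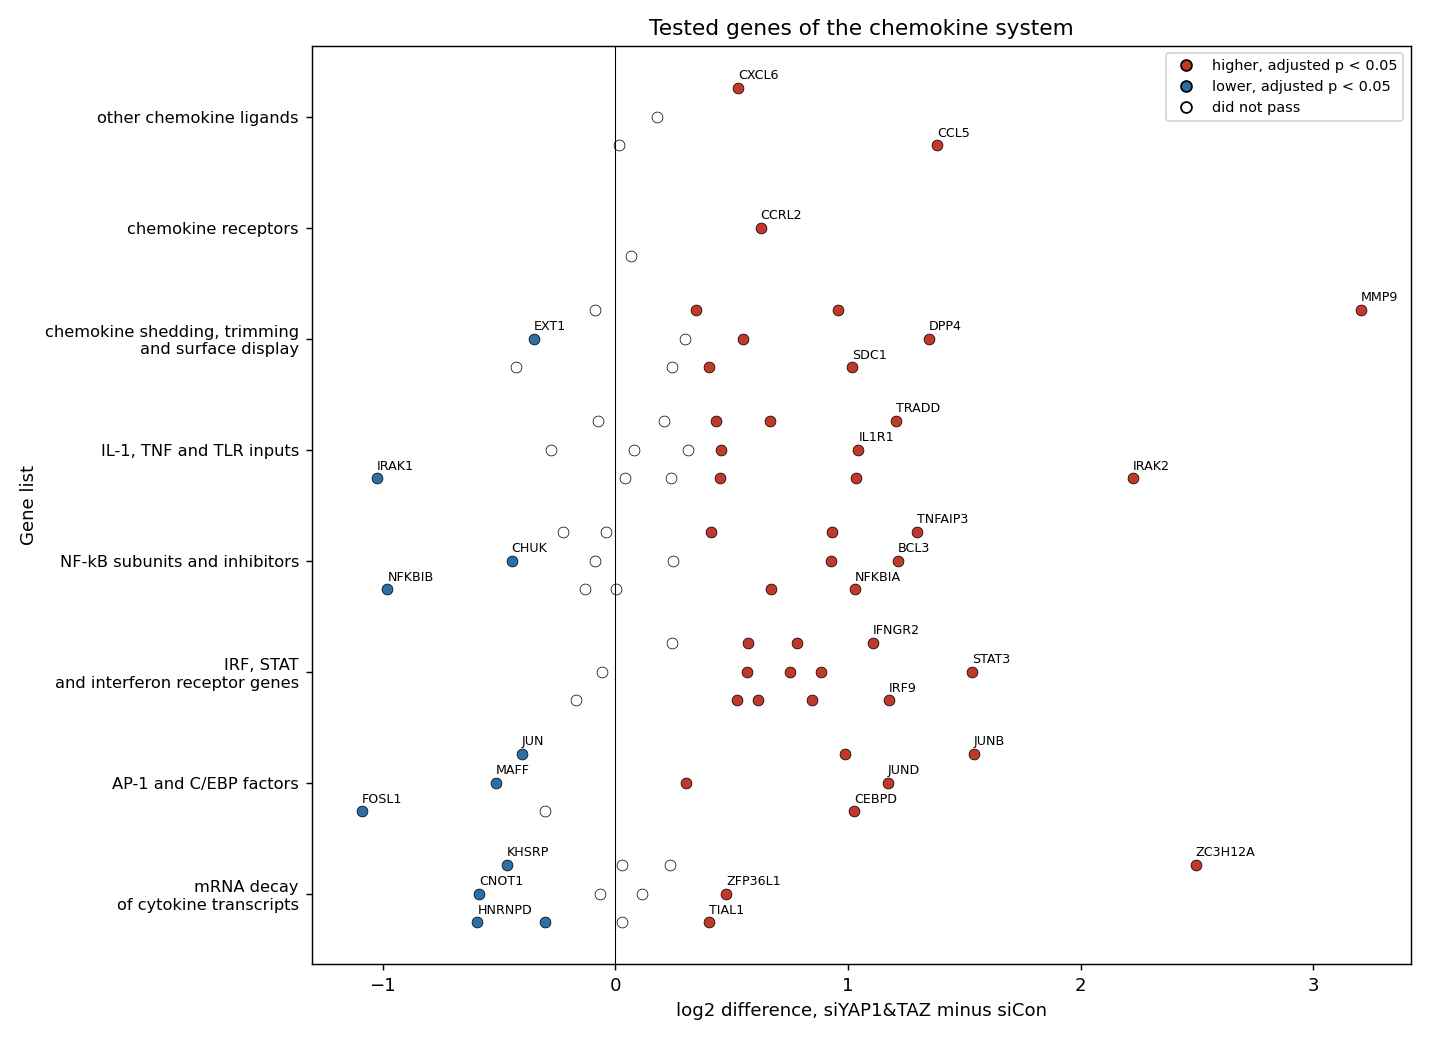
Log2 difference, siYAP1&TAZ minus siCon, of the tested genes of 8 lists around the chemokine genes (brightest probe of each gene; red higher and blue lower at an adjusted p under 0.05, white did not pass). Vertical offsets within a list only separate points, and labels mark up to 3 genes per list and direction. MMP9 at 3.20, ZC3H12A at 2.49 and IRAK2 at 2.23 lie farthest to the right, and most lists hold points on both sides of 0.

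Genes that act on chemokine mRNA or on the secreted protein were counted in the same way. Of 12 tested genes of cytokine mRNA decay, 3 rose and 4 fell (median 0.03), close to the 27.4% higher and 27.4% lower among all genes, so the counts are no result about this list. ZC3H12A, which encodes the endonuclease Regnase-1 that degrades inflammatory mRNAs, rose 5.63-fold, and ZFP36L1, which binds AU-rich elements, 1.39-fold and TIAL1, an RNA-binding protein of stress granules, 1.32-fold, although 1 other TIAL1 probe did not pass (log2 change 0.19, adjusted p = 0.223). Under median scaling ZC3H12A alone of the 3 stayed called. HNRNPD fell 1.51-fold, CNOT1, the scaffold of the CCR4-NOT deadenylase, 1.502-fold and KHSRP, which also binds AU-rich elements, 1.38-fold. A second CNOT1 probe did not pass (log2 change -0.16, adjusted p = 0.34). Among 12 tested genes of chemokine shedding, trimming and surface display, 7 rose and 1 fell (median 0.37), with 4 higher and 2 lower under median scaling. DPP4 entered the test only through the arrays where it was high, so these counts are given as a description. MMP9, a gelatinase known to trim several chemokines and detected on 3 siYAP1&TAZ arrays and 2 siCon arrays, rose 9.21-fold, DPP4, a peptidase that removes the first residues of many chemokines, rose at least 2.15-fold from below detection on all siCon arrays, and SDC1, a heparan sulfate proteoglycan, rose 2.02-fold. EXT1, a heparan sulfate polymerase, fell 1.27-fold (adjusted p = 0.0129), a call lost without siCon replicate 2 (adjusted p = 0.0535) and without the detection filter (adjusted p = 0.0939).

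Markers of other cells were set beside the chemokine values, since leukocytes and endothelial cells also make chemokines. Of 9 leukocyte marker genes with a named probe, PTPRC, the common leukocyte antigen, and CD3E, CD79A, LYZ, ITGAM and TYROBP were below detection on all 6 arrays. CSF1R was detected on 1 siYAP1&TAZ array alone and lay below the filter, and 2 genes were tested. CD14, a co-receptor for bacterial lipopolysaccharide, rose 3.21-fold, and FCGR3A had a log2 change of -0.12 and did not pass. The summed intensity of the leukocyte list was 1018 to 1034 on the siYAP1&TAZ arrays and 721 to 929 on the siCon arrays. Such sums add intensities as deposited, so they include array background and do not measure a cell type. The CD14 probe alone ran from 164 to 487 over the 6 arrays. All 8 endothelial marker genes, PECAM1, CDH5 and VWF among them, were below detection on all arrays, with sums of 407 to 422 on the siYAP1&TAZ arrays and 425 to 498 on the siCon arrays. Of 9 hepatocyte marker genes, 6 (APOA1, APOB, TTR, FGB, APOH and TF) were below detection on all arrays, SERPINA1 rose 2.83-fold and ALB, read between 78.4 and 133 on all arrays, fell 1.40-fold. AFP was detected on 2 siCon arrays and 0 siYAP1&TAZ arrays and lay below the filter. Hepatocyte sums were 1514 to 1676 on the siYAP1&TAZ arrays and 1078 to 1249 on the siCon arrays, and the SERPINA1 probe alone ran from 526 to 1200. The part of CD14 and SERPINA1 in the chemokine changes was not tested.

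The genes whose profile over the 6 arrays lay nearest to that of CCL2, by root mean square difference of log2 values after subtracting each gene's siCon mean, were CASTOR1, an arginine sensor, at 0.0878, RAB27B, a GTPase of vesicle secretion, at 0.184, CD74, the invariant chain of MHC class II, at 0.191, and ID1, an inhibitor of basic helix-loop-helix factors, and CTSO, a cathepsin, both at 0.224. Nearest to CXCL1, the member with the lowest fitted change, were C16orf87, KCTD12, ZEB1-AS1, ZNF20 and MANEAL, at 0.110 to 0.125. Their log2 changes ran from -0.36 to -0.18, and none was called, although KCTD12 passed in 3 other settings, C16orf87 in 2 and ZNF20 in 1. The likeness in change follows from choosing these genes by profile.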

How the data were processed

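RNA of 6 SK-Hep1 samples, 3 per group, was measured on bead arrays. The authors' deposited table holds 1 bead intensity per probe and array, not normalised, and the submitters' processing notes name BeadStudio, with no version given. A second table deposited by the authors holds log2 values, with a median of 6.12 on each array, which lay within 0.1 of quantile-normalised log2 intensities for 99.9% of values and served as an alternative.

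Analysis used limma 3.58.1 under R 4.3.3. Lacking control probes and detection p-values, each array was corrected with normexp on its own probes (saddle, offset 16) and quantile-normalised. The mode of log2 intensity (bandwidth 0.05) was taken as background, and values below it, mirrored, gave the detection threshold, exceeded by 5% of them. Groups were compared by lmFit and eBayes, two-sided, with Benjamini-Hochberg adjustment over 15899 probes. Promoter sequences come from RefSeq (GRCh38.p14). A fold "at least" sets the dim group to the higher of its own value and the lowest detected value per array. In simulated data on 15899 probes for this comparison, 100 probes were given a log2 change of 1 in size and 100 a change of 2. Of these, 92% and 100% were recovered, with 9 false calls. Far fewer probes changed there than in the data, and smaller changes were not simulated, so their recovery is unknown.

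Of 47231 probes, 30113 had 1 symbol, 8 several and 17110 were unnamed here. A gene is represented by its brightest tested probe. The members and gene lists were chosen with earlier results of these data known. Beside the members, text names YAP1, WWTR1, member receptors, ADAM10, ADAM17, up to 3 called genes per list and direction whose groups do not overlap, and 5 nearest profiles; other list members were named after their values were seen. The number of arrays limits the precision.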

Additional observations from a re-analysis of the deposited data

How the results depend on the processing

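Alternatives covered the background correction (none, or normexp offset 50), median scaling, the detection filter (none, or detection on all 6 arrays), the authors' values, each array's background as a covariate, array weights, the replicate block, each array left out in turn and, for counts of genes, the mean of a gene's probes. CCL2 and CCL20 stayed higher and past the threshold wherever they were tested. Requiring detection on all 6 arrays removed CCL20 and left 1 chemokine gene, on 1 probe, higher, and 3 were higher with background as a covariate or without siCon replicate 1, where CXCL2 passed. The count of lower members was 0 throughout. Over all probes, 4222 were higher, and 2325 under median scaling. Changes short of the threshold crossed 0 in some settings. With background as a covariate CXCL1 was at 0.027, ZEB1-AS1 at 0.030 and ZNF20 at 0.0064, under median scaling CXCL16 probe A was at 0.0016 and CXCL8 probe B at -0.044, and with array weights CXCL16 was at 0.012 and PPBP at -0.00742. With arrays left out in turn, CXCL16 probe A ran from -0.14 to 0.070, CXCL8 probe B from -0.11 to 0.23 and PPBP from -0.073 to 0.092. The causes were not tested. In promoters of 300 bases, 2 members in place of 1 had GGAATG.

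The labels give both groups the replicate numbers 1 to 3. Deviations of same-numbered arrays from their group means correlated at -0.18, -0.13 and -0.02, so the numbers were not taken as pairs. With the replicate block 7889 probes were called in place of 8298, the same 2 chemokine probes among them, and CXCL2 was at an adjusted p of 0.0969. Dim probes have only bounds, which limits what can be said of CXCL3, CXCL5, CXCL10 and CXCL16.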
